A study of Mus musculus with 9 samples.

Results

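The genes described here are 9 genes of growth factor signalling that are known to act on motor neurons: the neurotrophin receptors Ntrk2, Ntrk3 and Ngfr, the neurotrophin Bdnf, the 3 receptor subunits Cntfr, Lifr and Il6st, the receptor Met and its ligand Hgf. They were taken by name. Of the 9, 8 had a row among the 21457 features of the matrix of cholinergic nuclei, and Ngfr was not analysed here. The values came from single-nucleus RNA sequencing of sorted GFP+ nuclei from 12 mouse spinal cords (6 males and 6 females, 8 weeks old). Every mouse carried Chat-IRES-Cre and the nuclear envelope reporter Sun1-sfGFP, so a nucleus was labelled if its cell had expressed Cre under the choline acetyltransferase locus at any time, and no group was treated. The mice were pooled 4 at a time (pool 1, 2 males and 2 females; pool 2, 4 males; pool 3, 4 females), and each pool was cut into cervical, thoracic and lumbar/sacral cord, giving 9 libraries, 3 per region. A pool of 4 animals is thus 1 replicate, and sex cannot be told apart from pool. The authors' annotation divides the 16042 cholinergic nuclei into 21 clusters in 3 classes: 5054 skeletal motor neurons (MNs; S1 to S3), 5613 visceral MNs (V1 to V10) and 5375 interneurons (I1 to I8).

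Neurotrophins are secreted survival and plasticity factors that act through Trk receptor tyrosine kinases. BDNF binds TrkB, the product of Ntrk2, and neurotrophin-3 binds TrkC, the product of Ntrk3, the receptor of proprioceptive sensory neurons. Ciliary neurotrophic factor (CNTF) binds CNTFRα (Cntfr), which has no signalling domain and recruits LIFRβ (Lifr) and gp130 (Il6st), while leukaemia inhibitory factor (LIF) uses LIFRβ and gp130 alone, and both pairs activate JAK kinases and STAT3. Hepatocyte growth factor (Hgf) is the ligand of the receptor tyrosine kinase Met, and is known from the embryo as a survival and guidance factor of limb-innervating motor neurons.

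All levels are counts per 1000000 (CPM) of the nuclei of a class or cluster summed within a library, from corrected counts, and are compared between groups of nuclei but not between genes, because reads in introns were counted and long genes gather more of them. In the GENCODE vM21 annotation of GRCm38, Ntrk2 spans chr13:58806569-59133970, Ntrk3 chr7:78175959-78738012, Bdnf chr2:109674700-109727007, Cntfr chr4:41657498-41697089, Lifr chr15:7090614-7197489, Il6st chr13:112464070-112510086, Met chr6:17463800-17573980 and Hgf chr5:16553495-16620152. One value per gene cannot separate full-length from truncated TrkB or TrkC transcripts. Ntrk2 and Ntrk3 each overlap 4 other annotated genes, Bdnf overlaps the antisense gene Gm45346, and Hgf overlaps Gm42975 and Gm43489 on its own strand. How reads in these overlaps were assigned was not examined.

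RefSeq promoter windows on GRCm38.p6, from 250 bases before to 50 after a transcription start, were at hand for 7 of the 8 genes (20 windows, none for Ntrk3). One window each is shown for Hgf, Met and Lifr, the members whose levels differed most between classes of neuron, 5′ to 3′ on the gene's strand (+ for all 3), with motif matches in capitals. The windows lie at chr5:16553245-16553544 (Hgf), chr6:17463707-17464006 (Met) and chr15:7129322-7129621 (Lifr).
Hgf: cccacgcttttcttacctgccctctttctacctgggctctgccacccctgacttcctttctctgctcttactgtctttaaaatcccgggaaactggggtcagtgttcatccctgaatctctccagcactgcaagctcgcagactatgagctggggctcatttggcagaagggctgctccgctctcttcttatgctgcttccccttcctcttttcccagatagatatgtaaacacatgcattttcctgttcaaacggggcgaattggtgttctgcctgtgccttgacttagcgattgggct
Met: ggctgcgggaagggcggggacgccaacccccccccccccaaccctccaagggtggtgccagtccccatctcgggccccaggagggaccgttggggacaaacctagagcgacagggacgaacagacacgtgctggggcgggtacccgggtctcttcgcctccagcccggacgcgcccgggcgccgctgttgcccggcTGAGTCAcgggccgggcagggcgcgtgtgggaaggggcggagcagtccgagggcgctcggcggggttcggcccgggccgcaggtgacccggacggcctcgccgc
Lifr: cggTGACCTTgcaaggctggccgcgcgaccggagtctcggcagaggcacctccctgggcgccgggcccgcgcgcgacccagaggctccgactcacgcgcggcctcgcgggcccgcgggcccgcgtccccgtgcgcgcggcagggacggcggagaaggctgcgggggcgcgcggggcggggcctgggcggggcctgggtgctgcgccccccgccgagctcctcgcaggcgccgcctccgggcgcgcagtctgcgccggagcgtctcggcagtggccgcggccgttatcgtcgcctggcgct
Motifs were searched by letters on both strands in all 32851 windows. The AP-1 motif TGANTCA was in the Met window (position 197, counted from 1 at the 5′ end) and in 1 Bdnf window, and in 7.81% of all windows. The motif of estrogen-related receptors, AAGGTCA, was in the Lifr window as its reverse complement (position 4) and in 4.72% of all windows. The STAT motif TTCNNNGAA was in 1 Bdnf window and 8.30% of all windows. The cyclic AMP response element TGACGTCA was in none of the members' windows and 1.79% of all. The Hgf window held none of the 4 motifs. The Lifr and Met windows were rich in CG pairs (53 and 34, against a median of 7 over all windows), and the Hgf window held 7. A match describes letters in these windows and no binding was measured.

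The libraries held 747 to 2825 cholinergic nuclei with a median of 4712 to 16127 corrected counts each. The medians of the lumbar/sacral libraries were 4712, 7175 and 5701, and those of the other libraries 7087 to 16127. The class markers fell largely where the annotation places them: skeletal MNs had the highest level of 3 of 3 skeletal markers (Tns1, Prph and Isl1), interneurons of 3 of 3 interneuron markers and visceral MNs of Zeb2 and Fbn2, whereas Nos1 was highest in interneurons. Among skeletal clusters, S2 had the highest level of 3 of 3 alpha markers, S3 of 3 of 3 gamma markers, and S1 of Gpr149 and Rreb1, markers of the class the study calls Type 3. Plekhg1 was highest in S3, with a lower level in S1. In any class and library, the 5 astrocyte markers summed to 1.34 to 7.59 CPM, 3 endothelial and fibroblast markers to 1.39 to 6.38, 4 oligodendrocyte markers to 34.9 to 90.6 and 3 microglial markers to 4.52 to 118. Of the barcodes, 33 occurred in 2 libraries.

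Some library labels were at odds with the clusters. In pool 2, the library labelled cervical resembled the thoracic libraries of the other pools and the reverse: V5 made up 18.4% and 20.6% of visceral nuclei in the cervical libraries of pools 1 and 3 but 1.19% in that of pool 2, and 1.74% and 0.102% in the thoracic libraries of pools 1 and 3 but 28.9% in that of pool 2. The share of S2 among skeletal nuclei did not show this exchange (40.3%, 42.8% and 27.9% in the cervical libraries, 34.6%, 11.5% and 11.4% in the thoracic). The 42.8% counts the 71 nuclei described below, whose S2 label is itself in doubt, so these shares cannot decide the question. The size of a lumbar/sacral difference from the mean of cervical and thoracic does not depend on which of the 2 is which, nor does an overlap of libraries. The SE, p-values and calls of the fits by region do depend on it, as the spread was taken within each labelled region. Separately, the 71 nuclei called S2 in the cervical library of pool 2 carried markers of the other classes: the skeletal marker Tns1 was at 80.5 CPM, against 311 to 450 in the other 8 libraries' S2 nuclei, the visceral marker Zeb2 at 133 against 0 to 9.35, and the interneuron marker Pax2 at 45.1 against 0 to 14.3. All 9 skeletal, visceral and interneuron markers lay outside the range of the other libraries there. Of the 3 alpha markers, 1 lay outside: Stk32a was at 101 CPM against 172 to 545. Rbfox3 (200 CPM, others 107 to 333) and Sv2b (187 CPM, others 172 to 422) lay within. Tests and means that use S2 are therefore given with that library and, where named so, without it. The same 71 nuclei are 42.8% of the skeletal nuclei of that library and so also enter its skeletal class values. Those class values are given below with these nuclei included.

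Differences between classes and between skeletal clusters were tested with limma on log2(CPM + 5) of the library sums with a library term, and called at a Benjamini-Hochberg adjusted p under 0.05 over all genes tested and a log2 difference of at least 1. Since the clusters were drawn from the same nuclei, these tests describe the labels. Of the 8 members, 3 were called between skeletal and visceral MNs (Lifr and Hgf higher, Met lower in skeletal MNs), 2 between skeletal MNs and interneurons (Lifr and Hgf higher) and 1 between visceral MNs and interneurons (Met higher). Over all 11292 genes tested, 11.8%, 10.7% and 7.75% were called. The member counts that include Hgf use the lumbar/sacral skeletal values that chose the gene, and are not independent of that choice. On the adjusted p alone, 6, 5 and 5 of the 8 members passed, where 66.7%, 59.5% and 51.4% of all genes did. The members' median log2 differences were 0.27, 0.32 and 0.30, against -0.04, 0.02 and 0.05 over all genes.

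**Figure D1:**
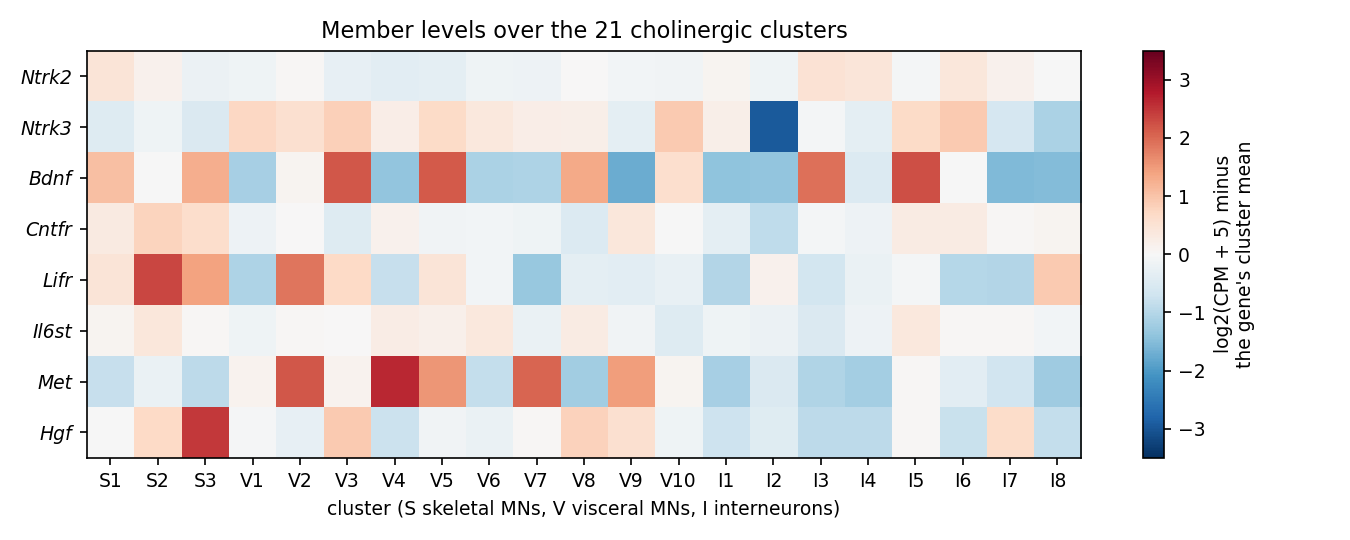
Each row is 1 gene and each column 1 of the 21 clusters; the colour is the log2(CPM + 5) of the mean over libraries minus the gene's mean over clusters, with red above and blue below. Bdnf, Lifr, Met and Hgf are each high in a few clusters, Ntrk3 is low in I2, and Ntrk2, Cntfr and Il6st vary little.

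The Trk receptor genes were present in every cluster. Ntrk2 ranged from 307 CPM in V4 to 562 CPM in I3, 1.83-fold, and none of the 20 pairs of neighbours in its order of clusters differed by more than the spread (the SD over libraries of the within-library difference). Ntrk2 was detected in 93.3% ± 5.23 of skeletal nuclei, 89.3% ± 9.26 of the visceral and 92.5% ± 6.25 of the interneuron ones (SD, n = 9 libraries). Skeletal MNs were at 355 (lowest), 396 (median) and 537 (highest) CPM, visceral MNs at 275, 357 and 439, and interneurons at 388, 415 and 600.1. The 3 ranges overlapped, but within a library skeletal MNs were above visceral MNs in 9 of 9 libraries, by 0.26 ± 0.05 on the log2 scale (SE, adjusted p = 3.6e-05), a difference under the minimum of 1.

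Ntrk2 was graded over the skeletal clusters in the order S1, S2, S3 in 9 of 9 libraries for each pair. The S1 cluster was at 484 (lowest), 522 (median) and 648 (highest) CPM, S2 at 308, 439 and 551, and S3 at 261, 322 and 448. The ranges of S1 and S3 did not overlap. S1 exceeded S3 by 0.67 ± 0.06 (limma log2 difference, SE, adjusted p = 8.7e-10), S1 exceeded S2 by 0.32 ± 0.06 (adjusted p = 0.00013) and S2 exceeded S3 by 0.35 ± 0.06 (adjusted p = 2.6e-05), all under the minimum of 1. Without the cervical library of pool 2 the latter pair of differences was 0.33 ± 0.06 (adjusted p = 0.00010) and 0.35 ± 0.06 (adjusted p = 2.7e-05).

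Ntrk3 varied more, 15.7-fold between I6 (982 CPM) and I2 (62.6 CPM). Its levels were high in visceral MNs, from 533 through a median of 680 to 1070 CPM, against 265, 352 and 535 CPM in skeletal MNs and 413, 501 and 643 CPM in interneurons. Visceral MNs were the highest class in 9 of 9 libraries. Skeletal MNs were lower than visceral MNs by 0.91 on the log2 scale (-0.91 ± 0.07, adjusted p = 1.9e-10), close to but under the minimum of 1.
The interneuron cluster I2 stood apart, with Ntrk3 detected in 26.6% ± 7.46 of its nuclei (SD, n = 9) against 78.9% to 99.7% as the mean of every other cluster. In I2 the cervical libraries were at 41.0, 47.3 and 50.5 CPM, the thoracic at 37.2, 25.0 and 29.5 CPM and the lumbar/sacral at 186, 76.1 and 70.9 CPM. The lumbar/sacral libraries of I2 were thus above all others, and the next cluster up, I8, exceeded I2 in 8 of 8 libraries.

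Bdnf, the ligand of TrkB, was not called between classes but was concentrated in a few clusters of each. Its class means were 27.5 ± 6.63 CPM for skeletal MNs, 24.2 ± 13.5 for visceral MNs and 19.8 ± 5.53 for interneurons (SD, n = 9), with differences of 0.28 ± 0.18, 0.40 ± 0.18 and 0.11 ± 0.18 on the log2 scale (SE) and adjusted p of 0.17, 0.062 and 0.63 by limma. Within classes, cluster means ran from 74.6 CPM in I5, 71.2 in V3, 69.3 in V5 and 58.6 in I3 down to under 5 CPM in 9 clusters. The 4 clusters at the top did not differ from their neighbours beyond the spread.

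In V3, Bdnf was at 81.5, 99.9 and 86.9 CPM in the cervical libraries of pools 1 to 3, at 88.1, 71.7 and 47.4 in the thoracic and at 85.9, 48.8 and 30.5 in the lumbar/sacral. V9 was the other extreme: none of its 247 nuclei held a Bdnf count, which allows a share of up to 1.21% and a level of up to 1.21 CPM for counting error only. The first limit is on nuclei with a count, not on nuclei that express the gene. Bdnf was detected in 35.8% ± 15.6 of V3 nuclei (n = 9), 31.4% ± 9.41 of V5 (n = 7) and 39.9% ± 16.8 of I5 (n = 9), and in 0.894% ± 0.969 of V4 nuclei. When nuclei were thinned to 4600 corrected counts, the V3 share was 23.3% ± 7.98 and the V4 share 0.804% ± 1.07.

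The visceral level of Bdnf varied between libraries. It was at 30.9, 11.7 and 28.4 CPM in the libraries labelled cervical and at 11.3, 31.9 and 5.52 CPM in those labelled thoracic (pools 1 to 3), and at 48.4, 31.0 and 18.9 CPM in the lumbar/sacral. V5, one of the clusters rich in Bdnf, made up 15.3%, 15.8% and 8.49% of the lumbar/sacral visceral nuclei, beside the cervical and thoracic shares given above, and its part in these levels was not tested. The cervical minus thoracic difference was not called, at 0.55 ± 0.49 (limma log2 difference, SE, adjusted p = 0.945), and without pool 2 it was 1.40 ± 0.38 (adjusted p = 0.454), with 2 libraries a region that did not overlap.

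Among skeletal clusters, Bdnf was low in S2, the cluster with alpha markers. The S2 libraries ran from 1.96 through a median of 11.8 to 27.6 CPM, S1 from 14.2 through 29.0 to 54.5 CPM, and S3 from 22.9 through 32.7 to 51.7 CPM. S2 was below both others in 9 of 9 libraries although the ranges overlapped. By limma, Bdnf was higher in S1 than in S2 by 1.10 ± 0.21 (adjusted p = 0.00026) and lower in S2 than in S3 (-1.37 ± 0.21, adjusted p = 1.1e-05). Without the cervical library of pool 2, the first difference was 0.99 ± 0.19 (adjusted p = 0.00013) and fell just under the minimum of 1, and the second was -1.19 ± 0.19 (adjusted p = 8.6e-06).
S1 and S2 thus differed in 2 of the 7 members tested (Bdnf and Lifr), S1 and S3 in 1 (Hgf), and S2 and S3 in 2 (Bdnf and Hgf), where 5.23%, 5.33% and 8.12% of 11465 genes were called. On adjusted p alone 6, 4 and 6 members passed, beside 25.4%, 19.8% and 31.1% of all genes. The counts that include Hgf again use the lumbar/sacral skeletal values that chose it. The members' medians were -0.32, -0.27 and 0.34, against 0.02, 0.02 and 0.01 over all genes. Without the cervical library of pool 2, 1, 1 and 3 of the 7 members were called (Lifr, then Hgf, then Bdnf, Lifr and Hgf). Over all 11347 genes tested in that setting, 5.98%, 5.23% and 8.98% were called. Met did not reach the minimum level in skeletal clusters and was not tested there.

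**Figure D2:**
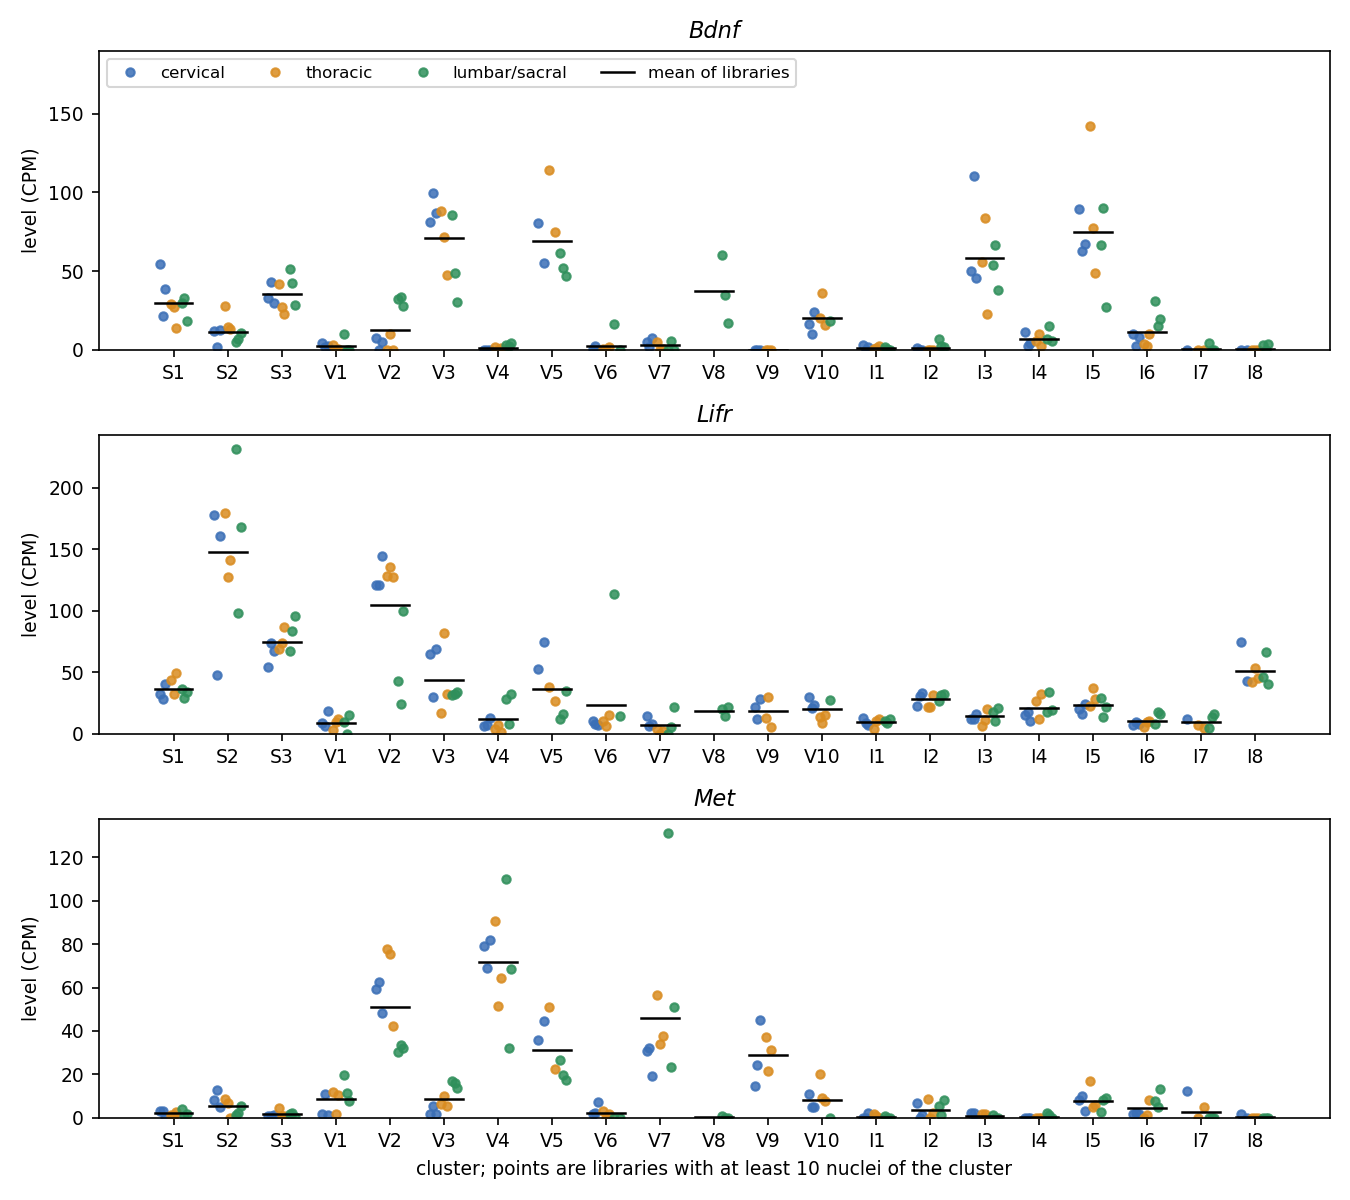
Levels in CPM of Bdnf, Lifr and Met in the 21 clusters; each point is a library with at least 10 nuclei of the cluster, coloured by region, and the bar is the mean. Bdnf is highest in I5, V3, V5 and I3, Lifr in S2 and V2, and Met in V4, V2 and V7.

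Cntfr, the ligand-binding subunit for CNTF, was present in every cluster, from 22.7 CPM in I2 to 83.2 CPM in S2 (89.8 CPM without the cervical library of pool 2). Skeletal MNs were at 44.4 (lowest), 72.9 (median) and 89.7 (highest) CPM, visceral MNs at 34.8, 42.3 and 54.6 and interneurons at 31.6, 40.3 and 50.9. Skeletal MNs were above visceral MNs in 9 of 9 libraries and above interneurons in 8 of 9. The log2 differences, 0.64 ± 0.08 (limma adjusted p = 6.2e-07) and 0.71 ± 0.08 (adjusted p = 1.7e-07), were under the minimum of 1.

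Lifr was the member of this complex that set the classes apart. Skeletal MNs ran from 53.0 through a median of 85.7 to 103 CPM, visceral MNs from 17.3 through 30.4 to 43.6 CPM, and interneurons from 14.3 through 19.6 to 22.2 CPM. The skeletal libraries overlapped neither of the other classes. The difference was 1.26 ± 0.11 against visceral MNs (limma log2 difference, SE, adjusted p = 1.4e-09) and 1.85 ± 0.11 against interneurons (adjusted p = 3.1e-12). Visceral MNs exceeded interneurons by 0.59 ± 0.11 (adjusted p = 9.4e-05), under the minimum of 1.

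By cluster, Lifr was at 148 ± 52.9 CPM in S2 (160.4 ± 39.9 without the cervical library of pool 2, n = 8), 105 ± 42.4 in V2 and 74.5 ± 12.4 in S3 (SD, n = 9), and the lowest mean was 6.94 ± 7.09 CPM in V7. The S2 libraries were at 178, 48.1 and 161 CPM (cervical, pools 1 to 3), 179, 127 and 141 (thoracic) and 231, 97.8 and 168 (lumbar/sacral), so that the lowest value was that of the cervical library of pool 2. S1 ran from 28.5 through 33.9 to 49.6 CPM and S3 from 54.4 through 73.7 to 96.0, with no overlap between S1 and S3. The S1 mean of 36.2 CPM was below those of V2, I8 (51.4), V3 (43.6) and V5 (36.4), and above those of all other visceral and interneuron clusters. S2 exceeded S1 (S1 minus S2, -1.81 ± 0.16, limma adjusted p = 2.2e-09), and it still did without the cervical library of pool 2 (-1.95 ± 0.12, adjusted p = 1.6e-12). S2 exceeded S3 by 0.86 ± 0.16 (adjusted p = 0.00013), under the minimum of 1 with all libraries, and by 1.03 ± 0.12 without that library (adjusted p = 8.6e-08). The S1 and S3 difference of -0.95 ± 0.16 (adjusted p = 4.7e-05) lay just under the minimum.

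Il6st, which encodes the shared signalling subunit gp130, was the most even member after Ntrk2, with cluster means of 18.0 to 38.2 CPM and no neighbouring pair beyond the spread. Skeletal MNs were at 28.7 (lowest), 31.7 (median) and 33.2 (highest) CPM, visceral MNs at 24.1, 27.9 and 38.8, and interneurons at 22.2, 26.1 and 28.9. The difference between skeletal MNs and interneurons, 0.24 ± 0.06 (limma adjusted p = 0.0016), was under the minimum of 1, and that between skeletal and visceral MNs was 0.10 ± 0.06 (adjusted p = 0.13). Within skeletal clusters Il6st was highest in S2, by 0.34 ± 0.11 over S3 (adjusted p = 0.020) and by 0.29 over S1 (S1 minus S2, -0.29 ± 0.11, adjusted p = 0.053). Without the cervical library of pool 2 these were 0.41 ± 0.10 (adjusted p = 0.0010) and -0.36 ± 0.10 (adjusted p = 0.0046), still under the minimum of 1.

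Counts of Cntfr, Lifr and Il6st were found together in 6.81% ± 4.04 of skeletal nuclei, 1.59% ± 1.39 of the visceral and 1.17% ± 1.16 of the interneuron ones (SD, n = 9). The products of the single shares were 5.04%, 1.24% and 0.994%. In S2 the 3 counts met in 12.5% ± 6.70 of nuclei, against a product of 10.8%. Without the cervical library of pool 2 the S2 share was 13.7% ± 6.02 (n = 8) and the product 12.03%. These shares depend on depth, and counts from free RNA or doublets were not separated.

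Met was, among the 3 classes, a gene of visceral MNs. The visceral libraries were at 22.6, 27.6 and 23.5 CPM (cervical, pools 1 to 3), 46.2, 21.3 and 28.3 (thoracic) and 28.1, 16.6 and 19.4 (lumbar/sacral). Skeletal MNs ran from 1.58 through a median of 2.34 to 6.29 CPM and interneurons from 1.46 through 2.09 to 3.93 CPM, below every visceral library. The log2 difference was -1.92 ± 0.10 for skeletal minus visceral MNs (limma adjusted p = 2.1e-13) and 2.03 ± 0.10 for visceral MNs minus interneurons (adjusted p = 1.8e-13). Skeletal MNs and interneurons were both near the lower end of detection (0.11 ± 0.10, limma adjusted p = 0.35). Met passed the level filter of these fits (10 CPM in 3 sums) through visceral MNs alone, the class where it is high.

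Within visceral MNs, Met was carried by 5 of 10 clusters. V4 had 71.9 ± 22.6 CPM, V2 51.2 ± 18.3, V7 46.2 ± 34.0 (SD, n = 9), V5 31.1 ± 12.9 (n = 7) and V9 29.0 ± 11.0 (n = 6), and the other clusters had at most 8.68 CPM as their mean. V9 exceeded the next cluster, V3, in 6 of 6 libraries and beyond the spread, while no neighbouring pair among the 5 high clusters differed beyond the spread. V8, which was found almost entirely in lumbar/sacral libraries (463 of 467 nuclei), had 1 Met count in all. Met was detected in 40.0% ± 13.6 of V4 nuclei and in 0.148% ± 0.257 of V8 nuclei, whose median totals were 8492 and 4971 corrected counts, and after thinning to 4600 counts in 25.2% ± 8.15 and 0.253% ± 0.437.

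Hgf, the ligand of Met, was found mainly in skeletal MNs, and of its 1437 corrected counts 904 (62.9%) came from S3, which held 13.97% of the nuclei. S3 was at 52.3 ± 26.5 CPM and exceeded the next cluster, V3 (14.4 ± 12.5 CPM), in 9 of 9 libraries (SD, n = 9). S1 ran from 1.32 through a median of 5.39 to 8.68 CPM and S2 from 0 through 10.0 to 27.6 CPM, and neither overlapped S3, whose lowest library was at 30.1. By limma, S3 exceeded S1 (S1 minus S3, -2.42 ± 0.22, adjusted p = 2.3e-09) and S2 (S2 minus S3, -1.80 ± 0.22, adjusted p = 2.9e-07), the latter by -1.67 ± 0.16 without the cervical library of pool 2 (adjusted p = 3.2e-09). With the cervical and thoracic libraries alone these were -2.14 ± 0.29 (limma adjusted p = 2.3e-05) and -1.62 ± 0.29 (adjusted p = 0.00033). The differences over all libraries include the lumbar/sacral skeletal values that chose the gene.

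Between classes, Hgf was higher in skeletal than in visceral MNs by 1.40 ± 0.17 (limma log2 difference, SE, adjusted p = 1.8e-07) and than in interneurons by 2.11 ± 0.17 (adjusted p = 3.6e-10), in 9 of 9 libraries each. Hgf was chosen for its level in lumbar/sacral skeletal MNs. In the cervical and thoracic libraries alone, the differences were 1.17 ± 0.11 (limma adjusted p = 1.5e-07) and 1.67 ± 0.11 (adjusted p = 2.4e-09). Those libraries were the other side of the regional pattern, so these values are not independent of the choice. Hgf passed the level filter of the class fits through skeletal MNs.

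In skeletal MNs, Hgf was at 19.7, 12.97 and 19.0 CPM in the cervical libraries of pools 1 to 3, at 20.7, 17.8 and 17.9 CPM in the thoracic libraries, and at 53.3, 48.4 and 41.6 CPM in the lumbar/sacral libraries. The lowest lumbar/sacral library stood above the highest of the other 6, and the means were 47.8 ± 5.87 and 18.0 ± 2.70 CPM (SD, n = 3 and 6), 2.65-fold apart. The log2 difference was 1.201 with an SE of 0.14, which is given as a description since this pattern chose the gene. Cervical and thoracic skeletal MNs did not show a difference (-0.11 ± 0.17, limma adjusted p = 0.81), and without the 2 libraries of pool 2 it was 0.0029 ± 0.17 (adjusted p = 0.997).

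Among skeletal clusters, the regional pattern of Hgf lay in S3. There the cervical libraries were at 41.6, 30.1 and 31.7 CPM, the thoracic at 43.9, 32.9 and 30.2 CPM and the lumbar/sacral at 93.8, 80.4 and 85.8 CPM, again without overlap and 2.47-fold apart in their means. In S2 the same libraries were at 10.0, 0 and 13.3, at 9.53, 7.95 and 13.2 and at 27.6, 7.16 and 16.3 CPM, and the groups overlapped. In S1 they were at 5.39, 8.40 and 6.82, at 1.32, 1.62 and 2.83 and at 6.62, 4.89 and 8.68 CPM, with no separation of lumbar/sacral from cervical. Hgf was detected in 37.2% ± 4.17 of lumbar/sacral S3 nuclei, 23.8% ± 3.61 of cervical and 22.7% ± 7.21 of thoracic ones (SD, n = 3). In the interneuron clusters I3 and I4, 0.202% ± 0.442 and 0.222% ± 0.667 of nuclei held an Hgf count (n = 9).
Markers of other cell types overlapped in S3 between the lumbar/sacral libraries and the rest: the 4 oligodendrocyte markers summed to 35.3 to 46.5 CPM in cervical, 29.9 to 36.4 in thoracic and 37.8 to 54.6 in lumbar/sacral libraries, the 5 astrocyte markers to 0.823 to 5.37, 0.878 to 5.20 and 1.07 to 2.01, the 3 endothelial and fibroblast markers to 3.22 to 5.10, 3.19 to 5.27 and 3.22 to 3.73, and the 3 microglial markers to 8.23 to 73.1, 6.15 to 117 and 13.3 to 116. In visceral MNs, Hgf was at 8.40, 2.73 and 9.63 (cervical), 3.37, 4.99 and 3.85 (thoracic) and 15.8, 5.22 and 8.96 CPM (lumbar/sacral), and these groups overlapped. The means of visceral clusters did not all go one way. V3 was at 9.08 ± 8.21 (cervical), 7.76 ± 11.1 (thoracic) and 26.4 ± 10.7 CPM (lumbar/sacral; SD, n = 3), with overlapping libraries. The V1 means went the other way, at 9.73 ± 7.89, 5.09 ± 3.04 and 0 CPM. That 0 rests on 73 lumbar/sacral nuclei, 23 to 26 a library. No limit for counting error was worked out for it, so the direction in V1 is not established. The lumbar/sacral difference was larger in skeletal MNs than in visceral MNs by 0.71 with an SE of 0.20 and than in interneurons by 1.33 with an SE of 0.20 on the log2 scale, again as a description. Hgf and Met counts met in 14 of 5054 skeletal and 23 of 5613 visceral nuclei.

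**Figure D3:**
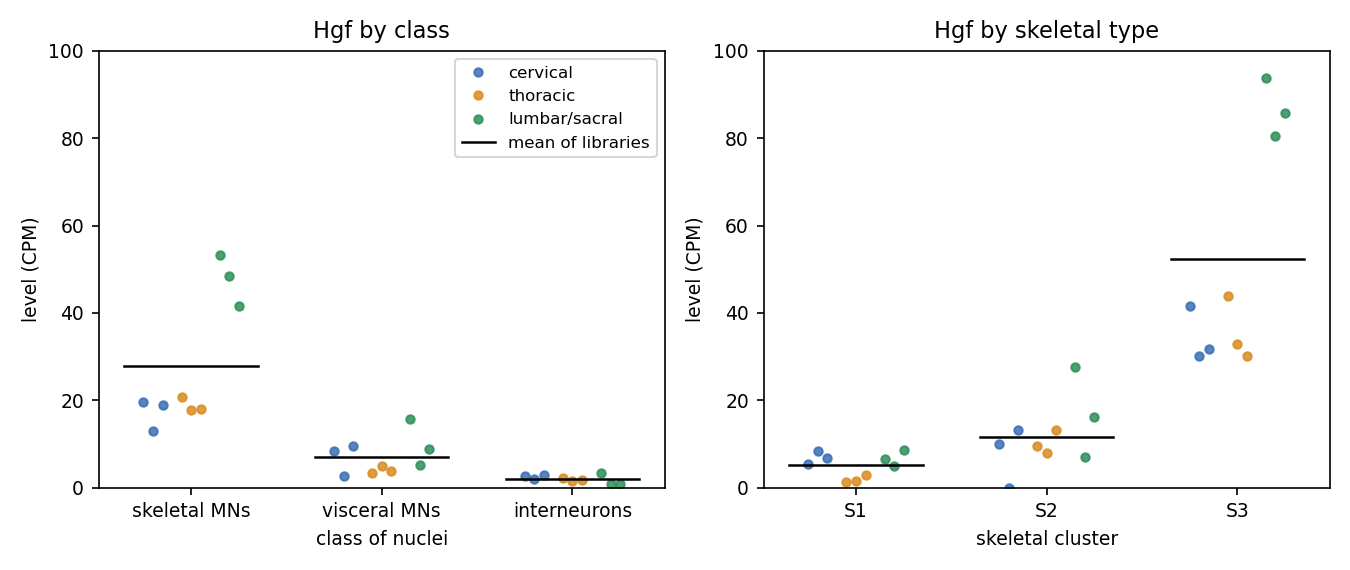
Hgf level in CPM by class (left) and by skeletal cluster (right); each point is a library, coloured by region, and the bar is the mean of the 9 libraries. The 3 lumbar/sacral libraries lie above the other 6 in skeletal MNs and in S3, and not in S1 or S2.

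No regional difference of a tested member was called. Lumbar/sacral libraries were compared with the mean of cervical and thoracic in each class, and a gene was called on adjusted p alone. Of the members tested, 0 of 6 were called in skeletal MNs, 0 of 7 for visceral MNs and 0 of 6 for interneurons by limma (0, 1 and 0 at an unadjusted p under 0.05). Over all genes 0.01%, 4.27% and 0.051% were called. With the pool as a replicate block, the members called remained 0, 0 and 0, while 4, 737 and 44 genes were called in place of 1, 428 and 5. The log2 differences of the members in skeletal MNs lay between -0.33 (Ntrk3, SE 0.22) and 0.17 (Bdnf, SE 0.22), where the median over all genes was 0.12, and in visceral MNs between -0.37 (Ntrk3, SE 0.23) and 0.68 (Bdnf, SE 0.43). Il6st in visceral MNs was the member with an unadjusted p under 0.05 (0.28 ± 0.12, limma adjusted p = 0.338).

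Cervical against thoracic gave 0 of 7 members for skeletal MNs, 0 of 7 for visceral MNs and 0 of 6 for interneurons (0, 0 and 0 at an unadjusted p under 0.05, limma), and 0%, 0% and 0% of all genes (607, 160 and 189 genes at an unadjusted p under 0.05). Without the pool 2 libraries, whose labels are in doubt, the members called were 0, 0 and 0 as well, with 1, 0 and 0 genes called in all. The lumbar/sacral difference itself was compared between classes: 0 of 7 members differed between skeletal and visceral MNs, where 9.73% of all genes did, and 0 of 7 between skeletal MNs and interneurons, where 0.7% did (0 and 0 members at an unadjusted p under 0.05).

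Within single clusters the members did vary along the cord in a few places, given here as values without a test. Pairs of a member and a cluster were compared over 16 clusters with 3 lumbar/sacral and at least 4 other libraries. Of 99 pairs, the lumbar/sacral libraries did not overlap the others in 14, and 4.54% of all gene and cluster pairs did not overlap. Of the 14, Hgf in S3 rests on the values that chose the gene and 13 do not. A pair was kept if 3 libraries reached 10 CPM, which the 3 lumbar/sacral libraries can meet alone. Bdnf in V2 and I6 and Met in V3 passed only with those libraries, where they are high. In S3 this was Hgf alone of 7 members (4.29% of genes), in V2 3 of 7 (7.57%), in V3 3 of 8 (5.48%) and in V5 3 of 7 (10.9%).
In V2, Lifr was at 121, 121 and 144 CPM in the cervical libraries, 128, 136 and 128 CPM in the thoracic and 43.0, 24.5 and 100.0 CPM in the lumbar/sacral. Met in V2 was at 59.4, 62.5 and 48.1, at 77.5, 75.4 and 42.4 and at 30.4, 33.4 and 32.0 CPM, likewise lower in the lumbar/sacral libraries. Bdnf went the other way, at 7.43, 0 and 4.81, at 0, 10.0 and 0 and at 32.2, 33.4 and 28.0 CPM, which rest on 4, 0 and 1, on 0, 2 and 0 and on 18, 15 and 7 corrected counts. V2 held 21 to 77 nuclei in a cervical, 21 to 197 in a thoracic and 47 to 121 in a lumbar/sacral library.
In V3, lumbar/sacral libraries were lower in Ntrk3 (529 to 700 against 775 to 1367 CPM) and higher in Il6st (29.5 to 44.7 against 23.1 to 25.9 CPM) and in Met (13.6 to 17.2 against 1.60 to 10.2 CPM). In V5 they were lower in Ntrk2 (176 to 265 against 348 to 407 CPM), Ntrk3 (595 to 715 against 773 to 1149 CPM) and Cntfr (29.3 to 37.8 against 43.4 to 52.3 CPM), with 4 other libraries. In the remaining 4 pairs the lumbar/sacral libraries were higher in Ntrk3 in I2 (values above), in Bdnf in I6 (15.1 to 31.1 against 2.35 to 10.4 CPM) and in Il6st in I1 (27.0 to 27.1 against 21.3 to 26.1 CPM), and lower in Ntrk2 in V1 (289 to 324 against 339 to 429 CPM). A cluster is one label over the whole cord, and whether it holds the same kinds of neuron at each level was not tested.

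**Figure D4:**
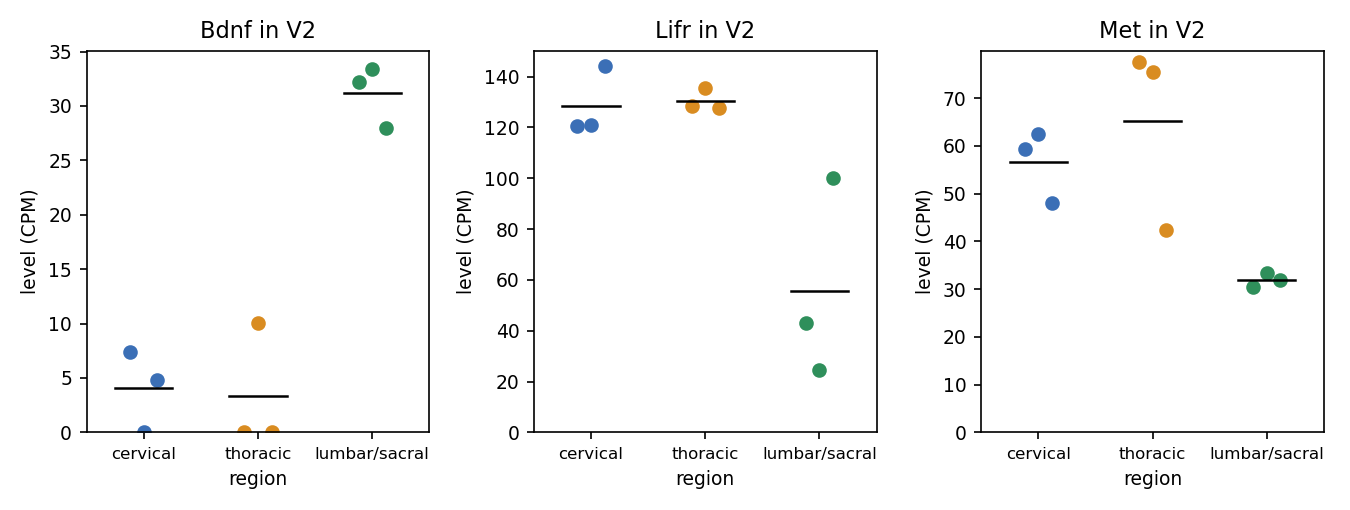
Levels in CPM of Bdnf, Lifr and Met in the V2 nuclei of each library, by region, with the bar at the mean of 3 libraries. The lumbar/sacral libraries lie above the other 6 for Bdnf (28.0 to 33.4 CPM) and below them for Lifr and Met.

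Other genes of these pathways were taken from a list of 45 in the matrix, of which 26 to 29 could be tested. Between skeletal and visceral MNs 4 of 28 were higher and 2 lower, with a median log2 difference of 0.03 against -0.04 over all genes, of which 11.8% were called. The adaptors Shc4 (2.45 ± 0.13, limma adjusted p = 7.6e-13) and Shc3 (1.59 ± 0.23, adjusted p = 3.2e-06), which link receptor tyrosine kinases to Ras, the HGF-activating protease Hpn (1.57 ± 0.09, adjusted p = 1.1e-12) and Stat3, the transcription factor downstream of gp130 (1.11 ± 0.08, adjusted p = 1.1e-10), were higher in skeletal MNs. The sortilin-related receptors Sorcs3 (-2.27 ± 0.22, adjusted p = 6.4e-09) and Sorcs1 (-1.89 ± 0.16, adjusted p = 1.7e-09) were lower.
Against interneurons 5 of 28 were higher in skeletal MNs and 2 lower (medians 0.10 and 0.02), where 10.7% of all genes were called. Gab1, the docking protein of Met, was higher in skeletal MNs (1.13 ± 0.11, limma adjusted p = 5.7e-09) and in visceral MNs (2.09 ± 0.11, adjusted p = 4.3e-13) than in interneurons. Stat3 was again higher in skeletal MNs (1.35 ± 0.08, adjusted p = 6.4e-12), as were Shc4 (1.90 ± 0.13, adjusted p = 6.4e-11) and Shc3 (1.74 ± 0.23, adjusted p = 1.2e-06), and Sorcs3 (-1.22 ± 0.22, adjusted p = 4.8e-05) and Sorcs1 (-1.18 ± 0.16, adjusted p = 2.2e-06) were lower. Between visceral MNs and interneurons 2 of 28, Gab1 and Sorcs3 (1.05 ± 0.22, adjusted p = 0.00032), were higher and 1, Sorcs2, was lower (-1.44 ± 0.09, adjusted p = 2.5e-11), with medians of 0.13 and 0.05 and 7.75% of all genes called.

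Between skeletal clusters, 1 of 29 genes was higher and 5 lower in S1 than in S2 (medians -0.13 and 0.02), 0 higher and 1 lower in S1 than in S3 (Sorcs2, -1.66 ± 0.20, limma adjusted p = 3.6e-07; medians 0.02 and 0.02), and 4 higher and 1 lower in S2 than in S3 (medians 0.21 and 0.01), where 5.23%, 5.33% and 8.12% of all genes were called. Shc4 was low in S2 (S1 minus S2, 2.35 ± 0.19, limma adjusted p = 6.6e-10, and S2 minus S3, -2.80 ± 0.19, adjusted p = 9.9e-12). S2 was also higher in Sorcs1 (2.61 ± 0.16 over S3, adjusted p = 9.2e-13), in Sorcs3 (2.51 ± 0.20, adjusted p = 1.1e-10), in Spint2, an inhibitor of HGF-activating proteases (1.90 ± 0.30, adjusted p = 1.1e-05) and in the gp130-associated kinase Jak1 (1.03 ± 0.10, adjusted p = 1.2e-08). Without the cervical library of pool 2, 1 of 28 list genes was higher and 5 lower in S1 than in S2, 0 and 1 in S1 than in S3, and 4 and 1 in S2 than in S3, beside 5.98%, 5.23% and 8.98% of all genes called.
By region, 0 of 28 and 0 of 26 list genes were called in skeletal MNs and interneurons, and 0 higher and 2 lower of 26 in lumbar/sacral visceral MNs (medians 0.08 and 0.06, with 4.27% of all genes called), namely Shc3 (-1.77 ± 0.16, limma adjusted p = 0.00053) and Gab2 (-0.68 ± 0.15, adjusted p = 0.037). The lumbar/sacral difference was more positive in skeletal than in visceral MNs for 3 of 28 list genes (Shc3 1.73 ± 0.16, adjusted p = 1.3e-07, Gab2 0.62 ± 0.12, adjusted p = 0.0011, and Sorcs2 0.56 ± 0.15, adjusted p = 0.022) and for 0 of 28 against interneurons, beside 9.73% and 0.7% of all genes. V8 made up 25.8% to 33.4% of lumbar/sacral visceral nuclei and at most 0.279% elsewhere, and its part in the visceral values was not tested. Cervical against thoracic gave 0 list genes in each class.

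**Figure D5:**
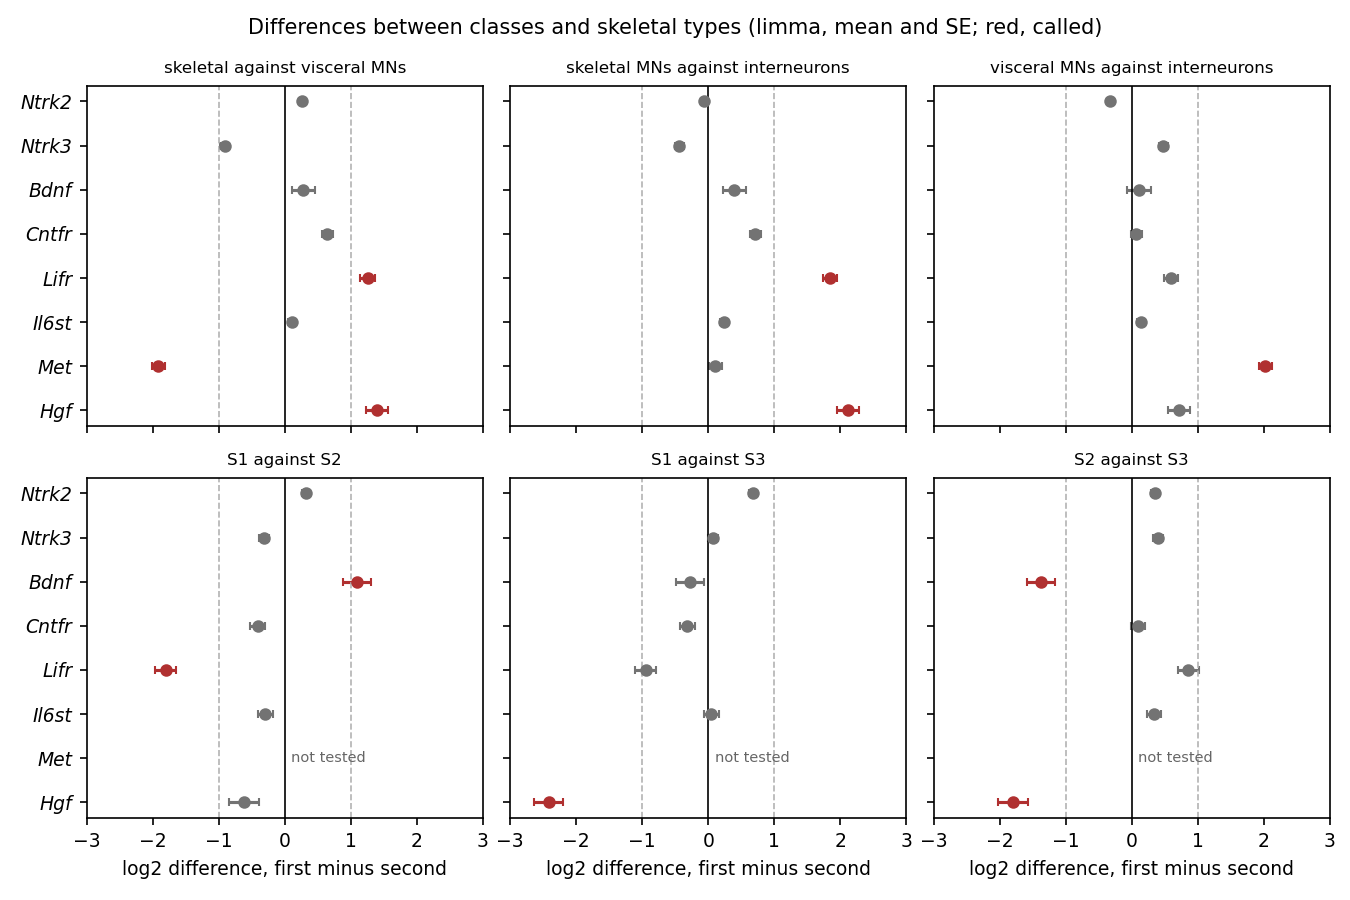
Log2 differences of the 8 members between classes (top) and skeletal clusters (bottom) by limma, with the SE as bars; red points are called, and dashed lines mark a log2 difference of 1 either way. Lifr, Met and Hgf pass between classes, and Bdnf, Lifr and Hgf between skeletal clusters. The Hgf points include the lumbar/sacral skeletal values that chose the gene.

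Across the 21 clusters, the gene most like Hgf was Ddr1, a collagen receptor kinase (Pearson r = 0.75 over 10841 genes compared), followed by 2410021H03Rik (0.72) and the potassium channel gene Kcnk13 (0.71), all with their highest level in S3. Met was followed by Slc22a3, an organic cation transporter (0.83), Cnep1r1 (0.82) and Filip1l (0.81). Bdnf was nearest to Hacd3 (0.78), the secreted neuropeptide precursor Vgf (0.78) and Dock1 (0.70). Lifr was nearest to B230312C02Rik (0.78), Uhrf1bp1 (0.75) and the co-chaperone gene Bag3 (0.75), all highest in S2.
The other members gave Gm21798 (0.79), Mlip (0.79) and Ano5 (0.77) for Ntrk2, Map7 (0.81), Synrg (0.80) and Ston2 (0.79) for Ntrk3, Fam173b (0.79), Gm10600 (0.79) and Erich1 (0.79) for Cntfr, and Wdfy2 (0.80), Cep63 (0.80) and Dcaf17 (0.79) for Il6st. Between members, r ran from -0.51 (Ntrk2 and Met) to 0.39 (Ntrk3 and Bdnf), and that of Hgf with Met was -0.05. The clusters share libraries and depth, and these values are descriptions without a test.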

How the data were processed

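The deposited matrix was made by the authors from 10x Chromium (version 3) nuclei with Cell Ranger 3.1.0 on mm10 with introns counted, and with Seurat, after outlying nuclei by genes and mitochondrial share had been removed. It holds the whole-number score that SCTransform gives, counts corrected for each nucleus's depth, and not raw reads, so these deposited scores were not given to a count model. Library, region, class and cluster came from the authors' annotation and the labels. Values were summed over the nuclei of a class or cluster in a library (at least 10 nuclei) and scaled to 1000000. Genes that reached 10 CPM in 3 or more sums were tested with limma 3.58.1 (R 4.3.3, trend) on log2(CPM + 5), first on simulated data. Shares were also taken after thinning nuclei to 4600 corrected counts, which left out 1384 nuclei, 1141 of them from lumbar/sacral pool 1. Limits for 0 counts use 3 counts.

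Named are all members, list genes called with a log2 difference of at least 1 (at most 6 per comparison) and the 3 genes most like each member. Gab2 and Sorcs2 by region, below that size, were added after their values were seen. The members and lists were chosen with earlier results of these data known. Region fits had no block. The replicate number marks 1 pool of mice cut into 3 regions, so by the labels the numbers pair the libraries. Deviations of same-numbered skeletal libraries correlated at -0.22 to 0.87, with 7 of 9 over 0.1. Those of differently numbered ones correlated at -0.77 to 0.58, with 5 of 18 over 0.1. The cervical library of pool 3 did not follow its number (-0.12 with lumbar/sacral and -0.22 with thoracic of pool 3). In the region fits, p-values measure the spread between libraries of 3 pools. In the fits with a library term, they measure the spread of within-library differences over 9 libraries. Those 9 libraries came from 3 pools, and the fits treat them as independent. A doublet step is not given in the sources used here, and no doublet caller was run.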

Additional observations from a re-analysis of the deposited data

Results flagged for a closer look

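Of 48 sets of 9 libraries (8 members in 3 classes and 3 skeletal clusters), 4 had a highest or lowest library whose gap to the next was a larger share of the range than Dixon's critical value at 95% for 9 samples, where chance alone flags about 1 in 20 sets. Met in visceral MNs reached 46.2 CPM in the thoracic library of pool 1, with 28.3 CPM as the next (gap 0.604 of the range). Met in S3 reached 4.39 CPM in the same library, with 2.41 next (0.522). Bdnf in S2 reached 27.6 CPM there too, with 14.6 next (0.509). Ntrk2 in interneurons reached 600.1 CPM in the cervical library of pool 3, with 488 next (0.528).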

How the results depend on the processing

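Of 230 recomputed counts of members called, 222 stayed within 1.5 times the value reported. With a pseudocount of 20, which shrinks the differences of low genes, the count fell to 0 between skeletal and visceral MNs, to 1 between S1 and S2 and to 1 between S2 and S3. With a pseudocount of 1 it was 2 between visceral MNs and interneurons (Hgf joined) and 2 between S1 and S3 (Lifr joined). With sums of at least 50 nuclei it was 2 between S1 and S3. Leaving out the lumbar/sacral libraries, chosen after seeing the data, gave 1 between S1 and S2 (Bdnf at 0.99). Leaving out 1 library at a time gave 1 to 2 members between S1 and S2, the 1 coming without the cervical library of pool 2. The replicate block gave 0 members in all 6 region comparisons, as did the fits without it. No member changed sign with a call, and of 1613 recomputed differences of single members 7 lost and 5 gained a call.

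Counts over all genes moved more. With a pseudocount of 20 the class comparisons gave 669, 626 and 429 genes in place of 1333, 1203 and 875, and the skeletal clusters 293, 341 and 488 in place of 600, 611 and 931, and with a pseudocount of 1 S1 against S2 gave 901. Lumbar/sacral visceral MNs gave 160 to 471 genes without 1 library, the lowest without lumbar/sacral pool 1, and interneurons 1 to 9. Skeletal MNs gave 12 with no filter on low values and 0 with a pseudocount of 1 or without any 1 lumbar/sacral library. The 2 comparisons of the lumbar/sacral difference gave 340 and 4 genes with no library term in place of 1099 and 79, and 682 to 1148 and 14 to 59 without 1 library. Other changed counts for interneurons by region were 3 with median-of-ratios scaling, 2 with a pseudocount of 1, 44 with the block and 13 without the pool 2 libraries, and for the difference against interneurons 52 with a pseudocount of 1 and 46 without the pool 2 libraries. Thinning moved 30 of 48 shares of nuclei by more than 1 SD. Low levels limit Met in skeletal MNs and interneurons, which could not be tested there by region.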
